A study of Mus musculus with 10 samples.

Results

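Ribosomal protein (RP) genes encode the protein parts of the cytosolic ribosome. They were examined here as a module in single-cell RNA libraries of mouse E0771 mammary tumors. Members were chosen by symbol alone, as Rps or Rpl followed by a number with an optional a, x, y or l, together with Rplp0, Rplp1, Rplp2 and Rpsa. The rule found 83 genes of 31053 in the count tables, 32 for the small and 51 for the large subunit, spread over 19 chromosomes. No measured value entered the choice. The measurement was the number of unique molecular identifiers (UMIs, tags that mark each captured RNA molecule) summed over the kept barcodes of each library and cell class.

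E0771 is a C57BL/6 mouse mammary carcinoma line, and here it was injected into the mammary fat pad of female mice aged 16 weeks whose tumors were taken on day 21. EC-AGO1-KO mice carried AGO1 flox/flox alleles and a Cre driven by the VE-Cadherin (Cdh5) promoter, so that deletion was aimed at endothelial cells, and WT mice were their littermates. The injected tumor cells carried no deletion in either group. There were 5 WT and 5 KO libraries, with 5 WT and 7 KO tumors, since 2 KO libraries (KO 2+3 and KO 5+6) each pooled a pair of small tumors. The labels divide the libraries into 2 batches sequenced on different instruments. Batch 1 holds WT batch 1 and KO batch 1, and batch 2 holds WT 1, WT 3, WT 4 and WT 5 with KO 1, KO 2+3, KO 4 and KO 5+6.

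Library totals were 8323896 to 10591577 UMIs, and 65298 barcodes passed limits of 200 to 7000 genes and 10% of UMIs from mitochondrial genes. Of 64765 distinct kept barcode sequences, 532 occurred in more than 1 library. Cells were clustered without the RP genes and named from marker genes, giving 55337 tumor-like, 2068 myeloid-like and 991 T-like cells, while 6378 were left unnamed. All 8 tumor, 18 T and 21 myeloid markers had UMIs in the class of their name. T-like cells held 0.426 to 0.815% of their UMIs in T markers and 0.0986 to 0.364% in tumor markers, and myeloid-like cells held 0.317 to 3.39% (median 0.483%) in myeloid markers and 0.154 to 0.913% (median 0.618%) in tumor markers. Myeloid markers took 0.0232 to 0.126% of UMIs in T-like cells, where Csf1r, Fcgr1 and Cd14 were among those at 0. Ago1 itself stood at 4.32 to 7.06 CPM (counts scaled to the library total) across the 10 libraries with overlapping groups. This does not check the deletion, because only 27 cells were endothelial-like.

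The ribosome has a small subunit, which reads the mRNA, and a large subunit, which joins amino acids. RP mRNAs are among the most abundant in growing cells, and the proteins are mostly needed in equal numbers. Most RP mRNAs begin with a 5′ terminal oligopyrimidine (TOP) tract, a short run of C and T (U in the RNA) through which mTORC1 and LARP1 control their translation. The mRNAs are mostly short and have many processed pseudogene copies, so a 3′ tag can fall on sequence that another counted gene shares.

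The start-site windows of the members that stood furthest apart between the batches (below) are shown with their runs of C and T around the annotated start. A run before the start is outside the annotated transcript and is not a TOP tract of it. Each window runs from 20 bases before to 10 bases after the RefSeq start on GRCm38.p6, 5′ to 3′ on the transcribed strand, with the longest run of C or T in capitals. The first 4 took a larger part of the RP UMIs in batch 1, the last 3 in batch 2.
Rpl38, chr11:114668560-114668589, plus strand: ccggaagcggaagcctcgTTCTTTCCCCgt
Rpl35, chr2:39005122-39005151, minus strand: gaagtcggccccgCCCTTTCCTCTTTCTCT
Rps28, chr17:33824553-33824582, minus strand: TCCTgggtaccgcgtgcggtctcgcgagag
Rpl35a, chr16:33056462-33056491, plus strand: gcgcggcggggcttgCCTTCCTCTTTCCgc
Rps25, chr9:44407694-44407723, plus strand: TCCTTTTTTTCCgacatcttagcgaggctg
Rpl5, chr5:107900508-107900537, plus strand: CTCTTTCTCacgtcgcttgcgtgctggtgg
Rpl37, chr15:5116593-5116622, plus strand: gaagtagTTTCCTgggcggaagcttatcca
Windows were found for 63 of the 83 members, and Rps29, Rpl29 and Rpl7 were not among them. Where a gene had several listed starts, the window with the longest run was taken. A run of at least 6 C or T bases, counted on the transcribed strand only, was present in 39 of the 63 windows (61.9%, median longest run 7 bases) against 33.8% of 27025 genes (median 5). The marked runs of Rps28, Rps25, Rpl5 and Rpl37 lie wholly before the annotated start. Long and short runs occurred on both sides of the batch difference. Rpl35 had 17 bases and Rps28 had 4 among the batch 1 members, and Rps25 had 12 and Rpl37 had 6 among the batch 2 members.

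The members with the most UMIs over all kept barcodes were Rpl37 with 481365, Rpl13 with 147091, Rpl29 with 145877, Rpl6 with 117620 and Rpl41 with 111012, all of the large subunit. Per kilobase of spliced transcript, Rpl37 ranked 3 in batch 1 and 1 in batch 2. Rps29, Rpl38 and Rpl41 held per-kilobase ranks 1, 2 and 4 in batch 1, and 42, 48 and 9 in batch 2. The order of the members thus differed between the batches. Of the 83 members, 21 shared over 10% of the 31-base words in their last 500 transcript bases with another counted gene, and their counts are less certain for that reason. Rpl29, Rpl35, Rpl41, Rpl11, Rps12, Rps18 and Rplp2, described below, are among them. Rpl13 and Rpl13a also overlapped another gene on the same strand.

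RP genes held many times more of the UMIs in batch 1 than in batch 2. The share was 19.96% in WT batch 1 and 18.4% in KO batch 1. In batch 2 it was 2.26, 2.61, 2.59 and 3.11% in WT 1, 3, 4 and 5, and 3.59, 2.96, 2.81 and 3.21% in KO 1, 2+3, 4 and 5+6. Both batch 1 libraries lay above all 8 of batch 2, with a difference of means of 16.3 percentage points (exact permutation test within genotype, two-sided p = 0.04, the smallest that 25 arrangements allow, and 0.107 adjusted over 8 share tests). The gap was present in every cell class compared. Tumor-like cells held 20.7 and 19.3% in batch 1 against 2.31 to 3.72% in batch 2, T-like cells 21.6 and 18.1% against 1.32 to 2.00%, and myeloid-like cells 15.9 and 14.2% against 1.26 to 2.41%.

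**Figure D1:**
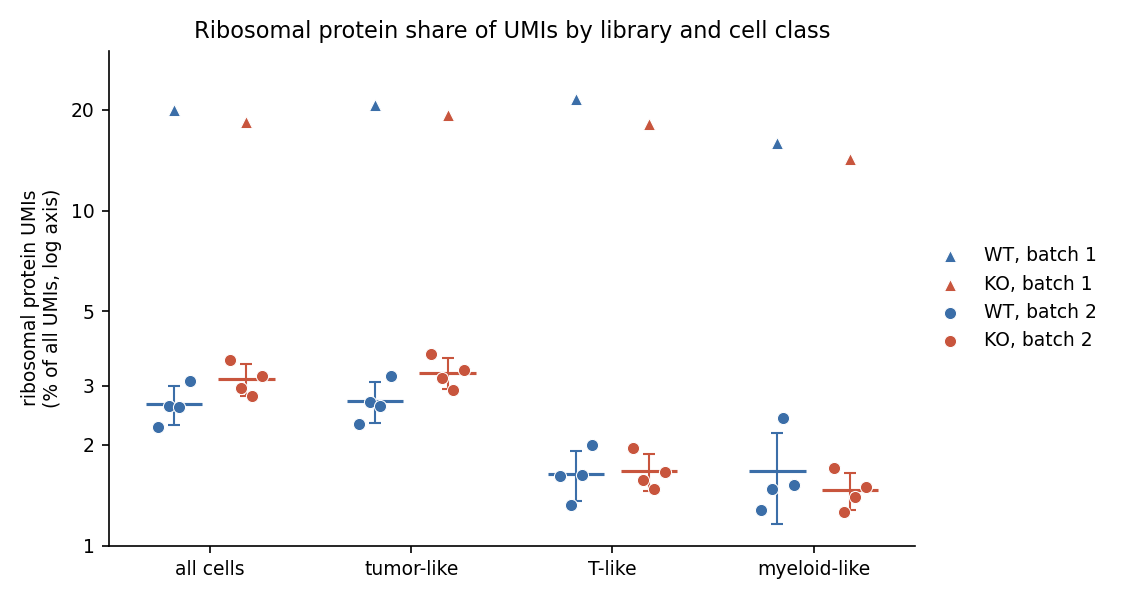
Share of UMIs held by the RP genes in each library (points, log axis), for all kept cells and for 3 cell classes, with batch 1 as triangles and batch 2 as circles. Bars give the mean and SD of the 4 batch 2 libraries of each genotype, and the batch 1 libraries (14.2 to 21.6%) sit above those of batch 2 (1.26 to 3.72%) in every class.

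Other features moved with the batch, and their part in the RP difference was not tested. Mitochondrial transcripts took 2.91 and 2.88% of UMIs in batch 1 and 0.213 to 0.707% in batch 2. Actb, encoding the cytoskeletal beta-actin, took 1.99 and 2.27% in batch 1 and 8.77 to 17.0% in batch 2. The median tumor-like barcode held 9672 and 12193 UMIs in batch 1 and 596 to 1230 UMIs in batch 2. Among barcodes of at most 50 UMIs, which mostly hold free RNA, RP genes took 9.39 and 7.73% in batch 1 and 1.95 to 5.68% in batch 2. Batch and sequencing instrument cannot be told apart.

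Among single members, 78 of the 80 tested were higher in batch 1 and none was lower (edgeR quasi-likelihood test, adjusted p under 0.05), where 40.7% of all genes were higher, 36% were lower and 76.7% were called either way. The median member stood 3.01 log2 units higher in batch 1, against 0.09 for all genes. The members not called were Rpl29, at -0.17 ± 0.17 (log2, SE, adjusted p = 0.365 by edgeR), and Rps25, at -0.23 ± 0.25 (0.407). Rpl10l, Rpl39l and Rpl3l were too sparse to test. Rpl38, of the large subunit, had the greatest difference at 6.06, followed by Rps29 at 5.94 and Rpl35 at 5.66. Rpl38 stood at 5339 and 4805 CPM in batch 1, and at 71.8, 71.1, 58.7 and 65.7 CPM in WT 1, 3, 4 and 5 and 99.4, 99.96, 65.5 and 78.1 CPM in KO 1, 2+3, 4 and 5+6. The batches did not overlap for Rpl38 and were 66.7-fold apart in the fit.

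The make-up of the RP pool also differed. With the summed RP UMIs as the library size, so that a member is compared with the RP genes as a whole, 37 of 80 members took a larger part in batch 1 and 15 a larger part in batch 2 (edgeR, adjusted p under 0.05). On this scale 5.04% of all genes tested were higher in batch 1, 85% were lower and 90% were called either way, since the RP sum itself is so much larger in batch 1. The members with a larger part in batch 1 were led by Rpl38 (3.32 ± 0.19, log2 and SE), Rps29 (3.22), Rpl35 (2.96), Rps28 (2.67) and Rpl35a (2.58). Those with a larger part in batch 2 were led by Rps25 (-2.96 ± 0.33), Rpl29 (-2.89), Rpl5 (-2.20), Rpl37 (-2.09) and Rpl7 (-1.98). Rpl5 is one of the proteins that bind the 5S ribosomal RNA and, when free, the p53 regulator MDM2.

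Rpl37, of the large subunit, made up 21.5% ± 3.50 (SD, n = 8) of the RP UMIs of batch 2, more than any other member. It held 5.08 and 4.98% of them in batch 1, and 19.6, 21.5, 15.3 and 21.2% in WT 1, 3, 4 and 5 and 26.3, 23.3, 19.7 and 25.3% in KO 1, 2+3, 4 and 5+6. Every batch 2 library was above both of batch 1. As CPM, Rpl37 differed less, with 10136 and 9133 in batch 1 and 3978 to 9467 in batch 2, where KO 1 overlapped batch 1. Rpl29 held 0.992 and 1.02% of RP UMIs in batch 1 and 6.62 to 8.23% in batch 2, and Rps25 held 0.631 and 0.706% in batch 1 and 2.61 to 7.13% in batch 2. Rps25 overlaps Ccdc84 and Trappc4, both annotated on the opposite strand.

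**Figure D2:**
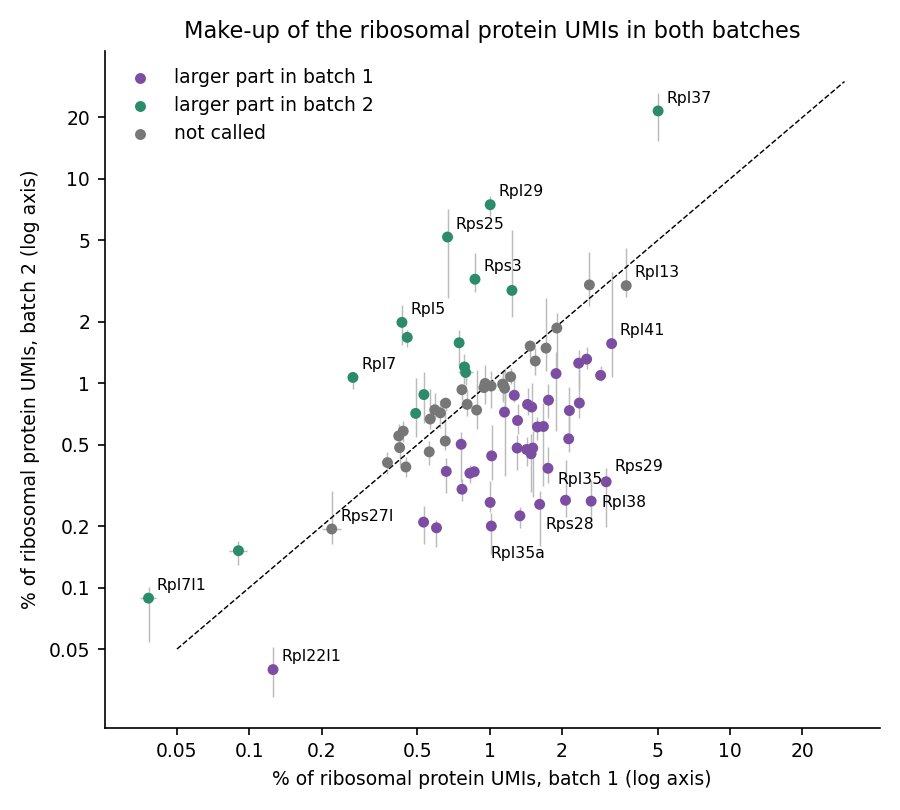
Part of the RP UMIs taken by each of the 80 tested members in batch 1 (x, mean of 2 libraries) and batch 2 (y, mean of 8), both as percent on log axes, with thin lines from the lowest to the highest library and a dashed line of equal parts. Purple members took a larger part in batch 1 (37), green members in batch 2 (15), and Rpl37 stands at 5.03 against 21.5%.

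The RP pool of batch 2 was held by fewer members. The 5 leading members held 17.9% of RP UMIs in batch 1 (Rpl37, Rpl13, Rpl41 and Rps29 among them) and 40.5% in batch 2 (Rpl37, Rpl29, Rps25, Rps3 and Rpl6), and 43 members were above 1% of the pool in batch 1 but 23 in batch 2. The small subunit took 42.7 and 43.1% of RP UMIs in batch 1 and 31.3% ± 2.39 (SD, n = 8, 28.3 to 34.6) in batch 2. In tumor-like cells of batch 2 this part rose with barcode depth (below). The 37 members with a larger part in batch 1 were 17 of the small and 20 of the large subunit, and the 15 with a larger part in batch 2 were 2 of the small (Rps25 and Rps3) and 13 of the large.

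Members with short transcripts leaned toward batch 1. Over 3 groups by spliced transcript length, the median log2 difference within the RP pool was 0.83 for the 26 members of 345 to 597 bases, 0.33 for the 27 of 612 to 899 bases and -0.04 for the 27 of 914 to 5130 bases. Across the 80 members, Spearman's rho with length was -0.39 and Pearson's r was -0.34, as a description only, since all members come from the same 10 libraries. Without the 21 members that share sequence with another counted gene, rho was -0.46 (n = 59). The GC content of the transcript had rho 0.03. A pyrimidine run of at least 6 bases was found in 16 of 29 windows (55.2%) of members with a larger part in batch 1, 8 of 11 (72.7%) of those with a larger part in batch 2, and 14 of 20 (70%) of those not called.

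**Figure D3:**
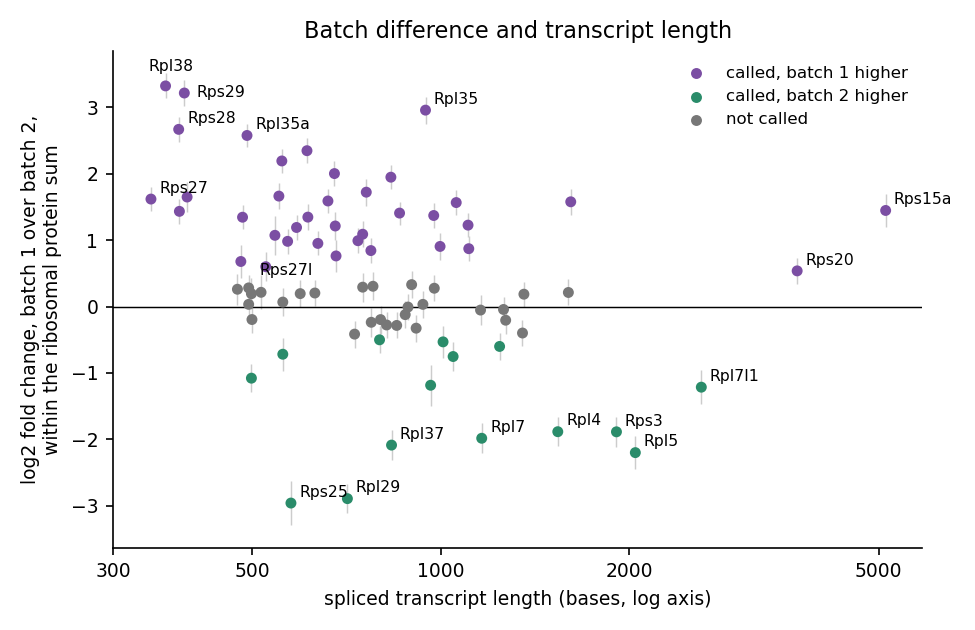
Log2 fold change of batch 1 over batch 2 within the RP sum (y, with SE) against spliced transcript length in bases (x, log axis) for the 80 tested members. Rpl38, Rps29, Rps28 and Rpl35a are short and high, Rpl5, Rps3, Rpl4 and Rpl7l1 are long and low, while Rps25 and Rpl29 are short and low and Rps15a and Rps20 are long and high.

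Copies of RP genes outside the rule split the counts differently in the batches. Rpl41, which encodes the smallest RP, had 86942 UMIs in batch 1 beside 41208 for Gm10076, so that the copy took 32.2% of both, and 24070 UMIs in batch 2 beside 564 for Gm10076 (2.29%). The reverse was seen for Rpl35, where Gm2000 took 1.61% of both in batch 1 and 36.0% in batch 2. Rpl10-ps3 took 1.30 and 10.5% beside Rpl10, Rps27rt took 0.954 and 10.4% beside Rps27, and Gm3550 took 0.441 and 2.58% beside Rpl29 in batches 1 and 2. As CPM, Rpl35 and Gm2000 stood at 3966 and 65.1 in batch 1 and at 76.4 and 43.0 in batch 2, so Rpl35 with its copy was also higher in batch 1.

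Within batch 2 the RP make-up of tumor-like cells varied with the depth of the barcode, and in batch 1 it varied less. At up to 500 UMIs the batch 2 libraries had a median RP share of 4.86% (3.13 to 6.44) and Rpl37 held 29.4% of RP UMIs (21.8 to 32.8). At 2000 to 5000 UMIs the RP share was 2.34% (1.80 to 2.73) and Rpl37 held 15.4% (10.7 to 19.1). In batch 1 the RP share over the same ranges was 23.3 and 21.5% (medians of 2 libraries), and Rpl37 held 4.52 and 5.21% of RP UMIs. In batch 2 barcodes of at most 50 UMIs, Rpl37 held 12.3 to 20.5% of RP UMIs, against 4.57 and 4.59% in batch 1.

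WT 4 stood apart from the other batch 2 libraries in its RP make-up. It was the highest or lowest of the 8 libraries for 54 of the 80 tested members, where the next library, KO 4, was so for 24. Rpl41 held 3.52% of RP UMIs in WT 4 and 1.07 to 1.49% in the other batch 2 libraries. Rpl13 held 4.61% against 2.64 to 2.94%, and Rps25 held 2.61% against 4.29 to 7.13%. Its RP share of 2.59% lay within the range of the others, its mitochondrial share of 0.213% was the lowest of the 10 libraries and its Actb share of 17.0% the highest.

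T-like and myeloid-like cells mostly held a smaller RP share than tumor-like cells of the same library. The T-like minus tumor-like difference was 0.860 and -1.17 percentage points in WT and KO batch 1, -0.703, -1.36, -0.990 and -1.21 in WT 1, 3, 4 and 5, and -1.76, -1.58, -1.43 and -1.68 in KO 1, 2+3, 4 and 5+6. It was below 0 in 9 of 10 libraries, with WT batch 1 the exception, and averaged -1.10 ± 0.761 (SD, n = 10, exact sign-flip permutation p = 0.00586, two-sided, 0.0234 adjusted over 8 share tests). The myeloid-like minus tumor-like difference averaged -2.13 ± 1.57 points and was below 0 in 10 of 10 libraries (exact sign-flip permutation p = 0.00195, the smallest possible, adjusted 0.0156), from -0.205 in WT 4 to -5.08 in KO batch 1. T-like exceeded myeloid-like cells in 8 of 10 libraries, by 1.02 ± 2.04 points (p = 0.141 by the same exact test). The T-like clusters of batch 1 were uneven, at 13.4, 22.7 and 21.2% against 20.1% in the main tumor-like cluster, as pooled cells with no test. An unnamed cluster of 66 cells led by B cell genes, also of batch 1, held 20.6% and was in none of these comparisons. Bulk sums cannot tell apart fewer RP molecules per cell and more of other RNAs.

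These class differences move with free RNA and depth. T-like barcodes of batch 2 had median depths of 307 to 373 UMIs against 596 to 1230 in tumor-like barcodes, and 103 to 2859 RP UMIs per library. Among barcodes of 250 to 500 UMIs only, the differences were wider, at -3.23 points for T-like and -3.49 for myeloid-like cells (both exact p = 0.00781). These rest on the 8 batch 2 libraries, since batch 1 had too few immune cells of that depth. In batch 2 the tumor-like barcodes of low depth also had the higher RP share (above). Free RNA was estimated in each class from the markers of the other 2 classes and subtracted, in tumor-like cells too. This gives no value where free RNA made up at least 90% of UMIs or where less than 0 RP UMIs would be left. The T-like difference was then above 0 in both batch 1 libraries, at 6.08 points in WT and 8.71 in KO, and below 0 in all 6 batch 2 libraries with a value, at -2.47 to -1.93 points. Over these 8 libraries the mean was 0.270 points (exact p = 0.852), and it was 0.014 with Pvt1 and Cdh13 as the only tumor markers. WT 1 and WT 4 had no value because less than 0 RP UMIs would be left in their T-like cells. Both means thus leave out the libraries with the least RP left after subtraction, so their sign cannot be read as a reversal. The batches thus lay on opposite sides of 0. In myeloid-like barcodes of batch 2 the estimate of free RNA was 67.6 to 140% of UMIs and above 100% in 5 of 8 libraries, and no batch 2 library had a value. The myeloid-like difference of 3.40 points rests on the 2 batch 1 libraries, and with Pvt1 and Cdh13 it was -4.13 points over those 2 and KO 5+6 (3 libraries, exact p = 0.25). Among classes not tested for lack of cells, the batch 2 RP share was 0.996% in 364 fibroblast-like, 1.03% in 27 endothelial-like and 2.44% in 133 epithelial-like cells.

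Of the 69 members with enough counts in the classes, 33 were lower and 1, Rps13, was higher in T-like than in tumor-like cells (edgeR with library as block, adjusted p under 0.05), where 36.5% of all genes were lower, 29.1% were higher and 65.6% were called either way. The median member was -0.44 (log2) and the median gene -0.13. In myeloid-like cells 25 of 69 members were lower and none was higher, against 36.4% lower, 35.6% higher and 72.1% called of all genes, with medians of -0.27 and -0.02. Both comparisons use the same tumor-like sums. For some members the edgeR p was far larger than the log2 value and SE imply, so the counts may leave members out. In myeloid-like cells these were Rpsa (-0.57 ± 0.16, adjusted p = 0.834, edgeR) and Rps4x (-0.54 ± 0.17, 0.986), among others. The fits scaled to the RP sum had such members too, as Rps26 in myeloid-like cells (0.41 ± 0.18, adjusted p = 0.652, edgeR). The members not tested were Rpl10l, Rpl13a, Rpl22l1, Rpl27, Rpl35a, Rpl36a, Rpl38, Rpl39, Rpl39l, Rpl3l, Rpl7l1, Rps27, Rps27l and Rps28. DESeq2 size factors moved the median gene to -0.38 in T-like cells and called 53 members, all lower, where 45.5% of all genes were lower and 68.9% called. In myeloid-like cells scaling to total UMIs moved the median gene to -0.39 and called 58 members, all lower, where 50.6% of all genes were lower and 77.3% called.

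Single members took uneven parts of the RP pool in T-like cells. Scaled to the RP sum, 9 of 69 took a larger and 6 a smaller part than in tumor-like cells (edgeR), where 45% of all genes were higher, 16.7% lower and 61.7% called either way on this scale. Rps13, of the small subunit, had the largest increase at 1.25 ± 0.22 (log2, SE). It held 1.76 and 1.46% of RP UMIs in T-like cells of batch 1 against 0.757 and 0.746% in tumor-like cells. In batch 2 it held 0.363 to 1.94% against 0.317 to 0.396%, on 58 UMIs in all T-like cells of that batch. Rpl7 (0.92), Rps23 (0.82), Rpl11 (0.78) and Rpsa (0.73) followed, of which Rpl11 joins Rpl5 in binding the 5S ribosomal RNA and Rpsa also serves as a laminin receptor.

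The members with a smaller part in T-like cells were led by Rps15 (-1.08 ± 0.32), Rpl13 (-0.85), Rps12 (-0.79) and Rpl37 (-0.65). Rps15 had 21 UMIs in T-like cells of batch 2 and was at 0 in WT 1, WT 3 and WT 5, and held 0.222 and 0.378% of RP UMIs against 0.661 and 0.683% in tumor-like cells of batch 1. Rpl13 held 2.20 and 2.18% of RP UMIs in T-like and 4.05 and 3.95% in tumor-like cells of batch 1. In batch 2 it held 0.948 to 2.16% in T-like and 2.67 to 4.60% in tumor-like cells, so the classes did not overlap in either batch.

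In myeloid-like cells 9 members took a larger and 6 a smaller part of the RP pool than in tumor-like cells, where 47.8% of all genes were higher, 13.4% lower and 61.2% called either way. The larger parts were led by Rpl11 (0.71 ± 0.26, log2 and SE), Rpl37a (0.67), Rps24 (0.66), Rps13 (0.58) and Rpl19 (0.57). Rps24 held 3.46 and 3.52% of RP UMIs in myeloid-like cells and 2.20 and 2.12% in tumor-like cells of batch 1, and 0.894 to 1.95% against 0.669 to 1.17% in batch 2. The smaller parts were those of Rpl37 (-0.70 ± 0.16), Rps3 (-0.62), Rps12 (-0.61), Rps18 (-0.57), Rpl4 (-0.44) and Rpl29 (-0.44), with Rps15 (-0.51, adjusted p = 0.095 by edgeR) not called. Rpl37 held 3.65 to 19.6% of RP UMIs in myeloid-like cells and 15.6 to 26.8% in tumor-like cells of batch 2, and was lower in the myeloid-like cells of all 10 libraries. After free RNA was subtracted by Pvt1 and Cdh13, 4 of 79 members tested were called in each class, where 42.7% of all genes were called in T-like and 68.7% in myeloid-like cells, and where myeloid-like sums of 4 batch 2 libraries (WT 1, WT 3, WT 4 and KO 4) were dropped for an estimate of at least 90%. With batch 2 alone, 24 of 59 members were called in each class, where 72.7 and 72.9% of all genes were called.

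**Figure D4:**
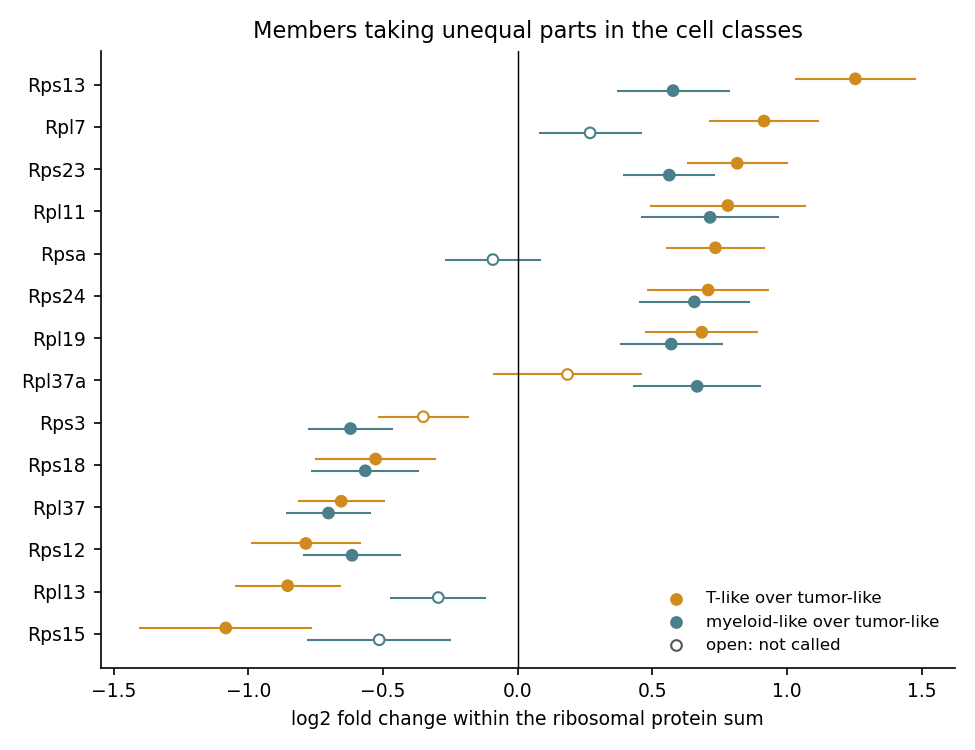
Log2 fold change within the RP sum (x, with SE) for T-like (orange) and myeloid-like (blue) over tumor-like cells, of the named members called in at least 1 class, filled where the adjusted p was under 0.05. Rps13 lies highest in T-like cells at 1.25 and Rps15 lowest at -1.08, and Rps12 and Rpl37 lie below 0 in both classes.

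The WT and EC-AGO1-KO libraries did not differ detectably in RP share. KO minus WT was 0.0797 percentage points over all cells (exact permutation test within batch, two-sided p = 0.857), 0.187 in tumor-like (0.686), -0.658 in T-like (0.586) and -0.502 in myeloid-like cells (0.3), with adjusted p of 0.48 to 0.857. Within batch 1, KO was lower in all of these, by 1.60, 1.38, 3.41 and 1.71 points with 1 library each. Within batch 2, tumor-like cells held 2.70% ± 0.374 in WT and 3.28% ± 0.343 in KO (SD, n = 4 each), a difference of 0.579 points (exact permutation p = 0.0857, of 70 arrangements). The T-like difference within batch 2 was 0.0306 points (p = 0.857, exact) and the myeloid-like difference -0.201 points (p = 0.6, exact). Without Rpl37, Rpl29 and Rps25, the difference over all cells of both batches was -0.151 points. The shares were then 18.9% in WT and 17.3% in KO batch 1. In batch 2 KO stayed higher, with means of 1.81% in WT and 2.01% in KO.

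No member was called between WT and KO in any class by edgeR, with 80 tested in all cells, 80 in tumor-like, 14 in T-like and 46 in myeloid-like cells, where 0% of all genes were called in each. At an unadjusted p under 0.05 there was 1 member in all cells, 1 in tumor-like cells and 0 in either immune class, and DESeq2 called 0 members in each class. Over all genes, the counts at an unadjusted p under 0.05 were 1133, 620, 24 and 71, and DESeq2 called 2, 1, 0 and 0. The fit scaled to the RP sum also called 0 of 80 members, with 0 members and 630 genes at an unadjusted p under 0.05. The member at an unadjusted p under 0.05 was Rps19, a small-subunit protein mutated in Diamond-Blackfan anemia, at 0.30 ± 0.14 in all cells (adjusted p = 0.549) and 0.35 ± 0.14 in tumor-like cells (adjusted p = 0.876, edgeR). In tumor-like cells Rps19 stood at 81.0, 102, 76.5 and 103 CPM in WT 1, 3, 4 and 5, at 153, 118, 115 and 141 CPM in KO 1, 2+3, 4 and 5+6, and at 1330 and 1255 CPM in WT and KO batch 1. The batch 2 groups of Rps19 did not overlap, and the order was the opposite in batch 1.

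None of the other largest differences was called. Over all cells they were Rpl41 at -0.34 ± 0.27 (log2, SE) and Rpl37 at 0.33 ± 0.18, and Rpl41 stood at 0.12 without WT 4. In tumor-like cells they were Rpl37 at 0.38 ± 0.19 and Rps28 at 0.33 ± 0.16. In T-like cells they were Rps3 at -0.42, Rpl32 at -0.37 and Rpl41 at -0.36, and in myeloid-like cells Rplp2 at -0.43, Rps27a at -0.39 and Rps15 at -0.36. Rplp2, a protein of the ribosomal stalk, stood at 1990 CPM in myeloid-like cells of WT 4 and at 318 to 682 CPM in those of the other batch 2 libraries. In tumor-like cells 61 of the 80 members had a positive and 19 a negative log2 difference, and in myeloid-like cells 5 of 46 were positive and 41 negative, none of them called. All members come from the same libraries, so their signs are not independent. The median tumor-like member was 0.074 and the median gene -0.003, and the median member was 0.003 without WT 1. In myeloid-like cells the median member was -0.228 and the median gene 5.6e-06. Rplp0, which is used as a reference gene for PCR in this field, stood at 2487 and 2206 CPM in WT and KO batch 1, 226, 274, 293 and 351 CPM in WT 1, 3, 4 and 5, and 381, 293, 298 and 382 CPM in KO 1, 2+3, 4 and 5+6.

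**Figure D5:**
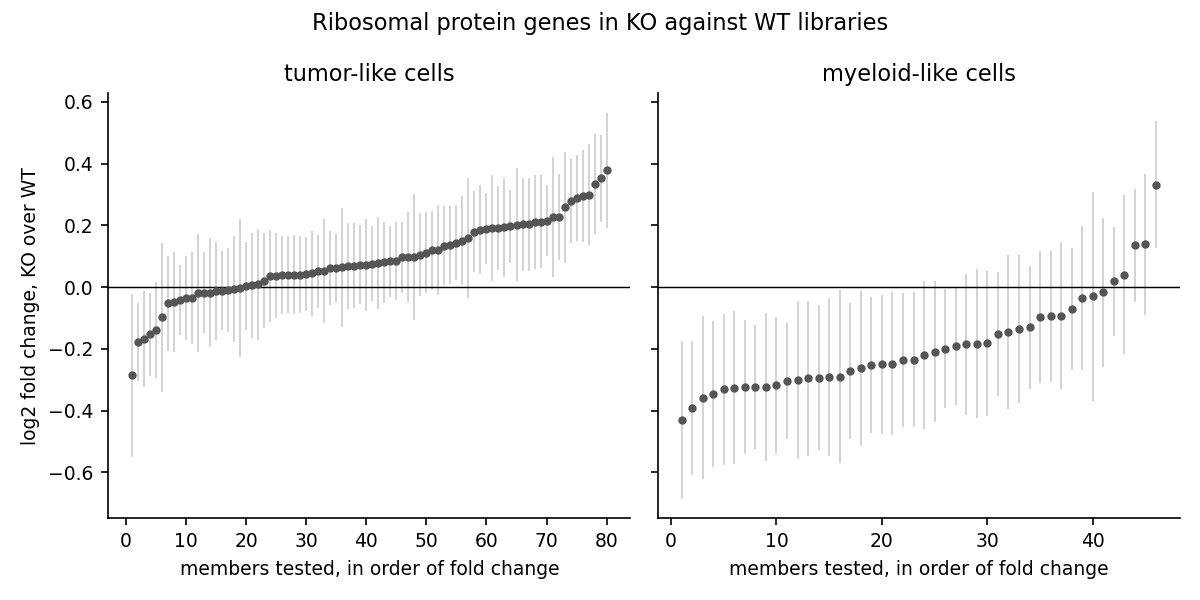
Log2 fold change of KO over WT (y, with SE) for each member tested in tumor-like (left, 80 members) and myeloid-like cells (right, 46 members), in order of size (x, rank). No member was called, and 61 of 80 lie above 0 in tumor-like cells while 41 of 46 lie below 0 in myeloid-like cells.

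The variant members were sparse, apart from Rps27l, Rpl22l1 and Rpl7l1. Rps27l had 5888 UMIs in batch 1 and 3026 in batch 2, Rpl22l1 had 3387 and 627, and Rpl7l1 had 1018 and 1392. Rpl39l, Rpl3l and Rpl10l, known from testis and from muscle, had 12, 26 and 0 UMIs in all. Rpl22l1 stood at 623 CPM in T-like, 351 CPM in myeloid-like and 209 CPM in tumor-like cells of batch 1, as sums over 2 libraries with no test, and at 10.8, 5.84 and 11.5 CPM in batch 2, where T-like and myeloid-like cells had 4 UMIs each.

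Other genes of translation differed between batches to unequal extents in the all-cells fit, where 40.7% of all genes were higher in batch 1 and 36% lower. Of 77 mitochondrial RPs tested, 74 were higher in batch 1 and 0 lower (median log2 2.54, led by Mrpl52 at 5.00). Of 10 other TOP or ribosome-associated genes, 9 were higher and 1 lower, with Fau, a fusion holding the small-subunit protein eS30, at 4.47 and Naca, of the nascent chain complex, at 3.52. Translation factors were higher for 30 and lower for 4 of 37 (median 1.32, led by Eif1 at 4.06), and ribosome biogenesis genes were higher for 34 and lower for 13 of 52 (median 0.99, led by Nop10 at 3.89). Regulators of TOP mRNAs were higher for 6 and lower for 7 of 16 (median -0.17), with Eif4ebp1 at 2.17 and Tial1 at -1.69. Between WT and KO none of these lists had a called gene in any class, where 0% of all genes were called. No mitochondrial RP had enough counts to be tested in T-like or myeloid-like cells. In T-like cells only 3 translation factors, 2 other TOP genes, 1 biogenesis gene and 0 TOP regulators were tested. In tumor-like cells the median log2 differences were 0.064, 0.060, 0.084 and -0.034 for these 4 lists and 0.065 for mitochondrial RPs.

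Against tumor-like cells, the counts for these lists are a description only, since their genes took part in the clustering. Of all genes 36.5% were lower and 29.1% higher in T-like cells, and 36.4% lower and 35.6% higher in myeloid-like cells. No mitochondrial RP had enough counts in the classes to be tested. In T-like cells 11 of 18 translation factors, 4 of 8 other TOP genes, 7 of 9 ribosome biogenesis genes and 4 of 8 TOP regulators were lower and none was higher, with Rrn3, a factor of RNA polymerase I, at -1.55 and Myc, also a tumor marker here, at -2.12. In myeloid-like cells 14 of 18 translation factors were lower and 1 higher, and 4 of 8 other TOP genes, 8 of 9 biogenesis genes and 4 of 8 TOP regulators were lower. Eif4b stood at -1.45 and Wdr43 at -1.59.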

How the data were processed

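The authors deposited unfiltered 10x count matrices of UMIs per gene and barcode for 10 libraries, made from 3′ v3 chemistry with Cell Ranger 7.1.0 on mm10 according to the submitters' processing notes. Whether intronic reads were counted is not given in the sources used here. Barcodes within 200 to 7000 genes and a 10% limit on mitochondrial UMIs were clustered (scanpy 1.11.5, Leiden, RP genes and Actb left out), and clusters were named from marker genes with thresholds set after the clusters were seen. No doublet caller was run, and mixed clusters stayed unnamed. Raw counts were summed per library and class and tested with edgeR 4.0.16 (quasi-likelihood, TMM, Benjamini-Hochberg over all genes tested), with batch or library as a term. Called means an adjusted p under 0.05. RP shares were compared by exact permutation. Alternatives included DESeq2 1.42.0, other filters and scalings, free RNA subtraction and leaving out each library. The statistics were checked on simulated data.

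Members were chosen by symbol without measured values, but this choice and the gene lists were made with earlier results of these data known. Named members were the 5 with the most UMIs, the 5 highest and 5 lowest in each fit scaled to the RP sum, the 3 largest WT to KO differences per class, paralogs by symbol, and up to 3 called genes per list. Some of the genes so named are not reported here. Nothing states that libraries of a group came from separate preparations, so p-values measure the spread between these libraries. Annotation, sequences and start sites came from the GRCm38.p6 reference and RefSeq. Shares rest on 103 RP UMIs (T-like cells, WT 4) to 1469443 (all cells, WT batch 1), and the smaller sums limit precision.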

Additional observations from a re-analysis of the deposited data

Results flagged for a closer look

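Of 44 sets of 4 or 5 libraries, 11 had a library far from the rest, where chance alone gives about 1 in 20. All 11 were sets that mixed the batches, and the library was the one of batch 1. The RP shares concerned were 19.96% in all cells, 20.7% in tumor-like, 21.6% in T-like and 15.9% in myeloid-like cells of WT batch 1, and 18.4, 19.3, 18.1 and 14.2% in the same classes of KO batch 1. The class differences concerned were -5.08 points for myeloid-like minus tumor-like cells in KO batch 1, and 5.62 and 3.91 points for T-like minus myeloid-like cells in WT and KO batch 1.

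The ratio of RP share between T-like and tumor-like cells differed between batches by 0.84 on the log2 scale, at -0.02 in batch 1 and -0.85 in batch 2 (exact permutation p = 0.04, the smallest possible, and 0.12 adjusted over 6 tests). The ratio between myeloid-like and tumor-like cells differed by -0.36 between KO and WT, at -1.02 in KO and -0.66 in WT (exact permutation within batch, p = 0.0286, adjusted 0.12). Within batch 2 that difference was -0.44 (exact p = 0.0571), and without WT 4, whose ratio of -0.12 lay nearest 0, it was -0.22 (exact p = 0.0286).

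Among the named members, the class difference within the RP sum varied with batch for Rps12 in T-like cells, by 0.86 on the log2 scale (-1.40 in batch 1 and -0.53 in batch 2, adjusted p = 0.0276 by edgeR). Rps12 varied by 0.86 in myeloid-like cells too (-1.25 and -0.40, adjusted p = 0.00276, edgeR), and Rpl19 by 0.72 in myeloid-like cells (0.10 and 0.81, adjusted p = 0.0128, edgeR). Over all 69 members tested, this interaction was called for 6 in T-like and 17 in myeloid-like cells, and over all 2302 genes for 690 and 1708.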

How the results depend on the processing

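WT against KO shares kept to no direction. Leaving out 1 library unbalances the batches, so the difference then holds part of the batch gap: it ran from -2.96 (without KO batch 1) to 3.54 points (without WT batch 1) in all cells, -3.02 to 3.79 in tumor-like, -3.95 to 3.33 in T-like and -3.06 to 2.35 in myeloid-like cells, with exact p down to 0.0429. It reversed without Rpl37, Rpl29 and Rps25 in all (-0.151) and tumor-like cells (-0.0729). Within batch 2 the KO mean then stayed above WT, at 2.01 against 1.81% in all and 2.09 against 1.85% in tumor-like cells. The difference also reversed without the pooled KO libraries in T-like (1.57) and myeloid-like cells (1.26). That setting likewise unbalances the batches, so these values hold part of the batch gap. Further reversals were in batch 2 alone in T-like cells (0.0306) and with free RNA subtracted in myeloid-like cells (1.83). The last value is KO batch 1 minus WT batch 1, 1 library each. The batch gap was 15.5 to 17.1 points on leaving out 1 library (exact p 0.05 to 0.2) and 16.3 without the pooled libraries (exact p = 0.0667), where fewer libraries allow no smaller p. The T-like minus tumor-like difference was -0.195 with at least 500 genes (3 libraries) and -1.41 with cells chosen by markers (exact p = 0.0508). With free RNA subtracted its mean was above 0 (0.270, or 0.0140 with Pvt1 and Cdh13). WT 1 and WT 4 were left out of both means because less than 0 RP UMIs would remain in T-like cells. By all tumor markers the difference rose above 0 in batch 1 and was -2.47 to -1.93 in the batch 2 libraries with a value. Myeloid-like minus tumor-like was 3.40 with free RNA subtracted by all tumor markers (batch 1 only) and -4.13 with Pvt1 and Cdh13. T-like minus myeloid-like was 0.512 to 1.22 on leaving out 1 library, past the threshold without WT 4 (1.22, exact p = 0.0117), and 1.05 with cells chosen by markers (exact p = 0.00781).

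Members called in T-like against tumor-like cells were 53 of 69 with DESeq2 (68.9% of all genes), 74 of 82 with no filter (25.9%) and 64 of 79 with free RNA subtracted (62.3%), and 27 to 51 on leaving out 1 library (61.2 to 70%). In myeloid-like cells they were 58 of 69 with total UMIs (77.3%), 42 of 69 with DESeq2 (72.8%), 76 of 82 with no filter (32.4%), 40 of 59 in batch 2 (71.7%) and 67 of 79 with free RNA subtracted (63%), and 22 to 48 on leaving out 1 library (69.8 to 74.2%), with 48 without KO batch 1, 43 without WT 3, 42 without KO 4 and 38 without KO 5+6. Members with uneven parts were, in each class, 24 of 59 in batch 2 (72.7% of all genes in T-like and 72.9% in myeloid-like cells) and 4 of 79 with free RNA subtracted (42.7 and 68.7%). The causes were not tested. Rps24 in myeloid-like cells reversed with free RNA subtracted (-0.33), and among WT to KO differences Rpl41 reversed without WT 4 (from -0.49 to 0.12 over the libraries left out), and Rps19 (-0.026) and Rps28 (-0.074) without the batch term. Of the other values for named members, 17 lost and 3 gained their call. Of the remaining values, the 575 for named members and the shares among the other 285 kept direction and side of the threshold. The counts among the 285 were only equal or near to the main count, which checks neither direction nor which members were called. Same-numbered WT and KO libraries (1 and 4 only) did not deviate together, with correlations of -0.23 and -0.25 over all cells, and a replicate block left 0 members called in each class.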
